A study of Schmidtea mediterranea with 40 samples.

Results

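Expression of *notum* and of 4 genes that make or secrete Wnt ligands was followed at planarian wounds on the contigs dd_Smed_v6_24180_0_1 (*notum*), dd_Smed_v6_28398_0_1 (*wnt1*), dd_Smed_v6_14391_0_1 (*wnt11-1*), dd_Smed_v6_7326_0_1 (*wntP-2*) and dd_Smed_v6_11629_0_1 (*wntless*). These 5 contigs were taken by name from the 28742 contigs of the read count table. The deposited annotation calls them Notum, wntP-1, wnt11-1, wntP-2 and Evi/Wls, where wntP-1 is another name of *wnt1*. It places *notum* in a myoD+ wound-response muscle cluster, and *wnt11-1* and *wntP-2* in a cluster of muscle with multiple voltage gate genes.

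The 40 RNA sequencing libraries came from wounds of asexual *Schmidtea mediterranea* (strain CIW4) that had been fed dsRNA 4 times within 14 days and were amputated after a further 7 days, with 5 wounds per replicate. Control RNAi animals received dsRNA of *unc-22*, a *Caenorhabditis elegans* gene, and the other arm received dsRNA of *activin-2*, the gene of a secreted ligand of the Activin family. Each arm had 3 libraries labelled 0, 6, 24 and 48 hours post-amputation (hpa), and 4 libraries each of anterior-facing and posterior-facing wounds at 18 hpa. The labels call the wounds at 6, 24 and 48 hpa posterior-facing and give no orientation at 0 hpa, where the paper's results give posterior-facing. The wounds are described as lying on fragments from behind the pharynx, but levels of pharynx marker contigs, given below, differed between groups of control RNAi. The labels do not say whether replicates came from separate RNAi experiments, so p-values measure the spread between these libraries only. The 18 hpa libraries differ from the others in title format and in number per group. Whether all libraries were prepared together is not stated in the labels. A difference between 18 hpa and another label therefore cannot be told apart from a difference between sets of libraries.

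Wnt proteins are secreted ligands that, as background, are made mainly in muscle in planarians. Several of them, but not all, mark the posterior of the body. Wntless carries newly made, lipid-modified Wnts to the cell surface, and Notum is a secreted enzyme that removes the lipid and so inactivates the ligand. Within hours of a transverse cut, wounds express *wnt1*, and *notum* is expressed preferentially at wounds that face the anterior, where a head is to form, while *wnt11-1* and *wntP-2* are expressed without injury in posterior domains of the body.

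Between 2524235 and 13381025 reads were counted per library (median 10533396), and the lowest total belonged to *activin-2* RNAi labelled 48 hpa replicate 3. *activin-2* itself was lower in *activin-2* RNAi at labelled 0, 6, 24 and 48 hpa, with group means of 2.75 to 4.31 reads per 1000000 counted reads (RPM). At 18 hpa the fall was not seen in all libraries labelled *activin-2* RNAi, with 25.8 to 85.8 RPM at anterior-facing wounds and 3.63 to 70.1 RPM at posterior-facing wounds, against 27.1 to 44.3 RPM in the control RNAi libraries of both orientations, and the differences of 0.69 (adjusted p = 0.301) and -0.80 (adjusted p = 0.407) did not pass edgeR's test. At 18 hpa, *activin-2* RNAi therefore stands for the libraries labelled so. The wound-induced genes *runt-1* and Early growth response-2 were lowest at labelled 24 hpa in both arms (*runt-1* means of 0.579 and 0.537 RPM), and *runt-1* was higher in every library labelled 48 hpa than in every library labelled 24 or 6 hpa (48 hpa means of 12.6 and 31.4 RPM). Fos-1 (76.4 and 83.6 RPM) and Inhibin-1 (dd_7607, 5.56 and 8.99 RPM) were also lowest at labelled 24 hpa. Follistatin group means changed little in control RNAi (20.0 to 22.6 RPM). Inhibin-1 (dd_4120) had its highest control RNAi mean at labelled 24 hpa (64.5 RPM), so the wound genes did not all move alike. *runt-1* and Early growth response-2 were higher in every library labelled 0 hpa than in every library of the same arm labelled 6 hpa. In control RNAi *runt-1* was 4.08 to 6.84 RPM against 0.996 to 1.84 RPM. In *activin-2* RNAi it was 2.49 to 17.6 RPM against 1.24 to 1.87 RPM. Early growth response-2 means were 33.4 against 16.5 RPM and 28.1 against 11.5 RPM in these arms. Inhibin-1 means were lower at labelled 0 hpa in both arms (dd_4120) or in control RNAi only (dd_7607). Because of *runt-1* and Early growth response-2, each time is given as labelled.

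Across the 12 groups the lowest mean of all 5 genes was in control RNAi labelled 24 hpa, and the highest mean lay in a different group for most of them. Between their highest and lowest group means *wnt11-1* varied by 15.7-fold and *wnt1* by 13.9-fold. With 1 library left out, a check chosen after seeing the data, these folds were 11.9 to 40.9 for *wnt11-1*, the highest without control RNAi labelled 24 hpa replicate 1, and 11.1 to 17.0 for *wnt1*, so that their order was not settled. *notum* varied by 4.11-fold, *wntless* by 3.96-fold and *wntP-2* by 3.14-fold. The genes with few reads had the widest spread between libraries of a group, with a median coefficient of variation of 43.3% for *wnt1* (1 to 38 reads per library) and 16.6% for *notum* (4 to 57 reads), against 15.5% for *wnt11-1*, 12.4% for *wntless* and 10.8% for *wntP-2*. RPM are not divided by transcript length, so that levels were compared between groups and not between genes.

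In the order of group means, most neighbouring groups shared part of their range. For *notum*, 7 groups with means of 3.00 to 4.67 RPM stood above 5 groups with means of 1.14 to 1.76 RPM, and the step between these sets was the only one of 11 at which neighbours did not overlap. The lower set held control RNAi posterior-facing wounds at 18 hpa and both arms labelled 24 and 48 hpa. For *wnt1* the only such step lay between *activin-2* RNAi labelled 6 hpa (0.837 ± 0.22 RPM, SD, n = 3) and *activin-2* RNAi labelled 24 hpa (0.361 ± 0.18 RPM, SD, n = 3). *wnt11-1* had 3 such steps, *wntP-2* had 2 and *wntless* had 2.

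**Figure D1:**
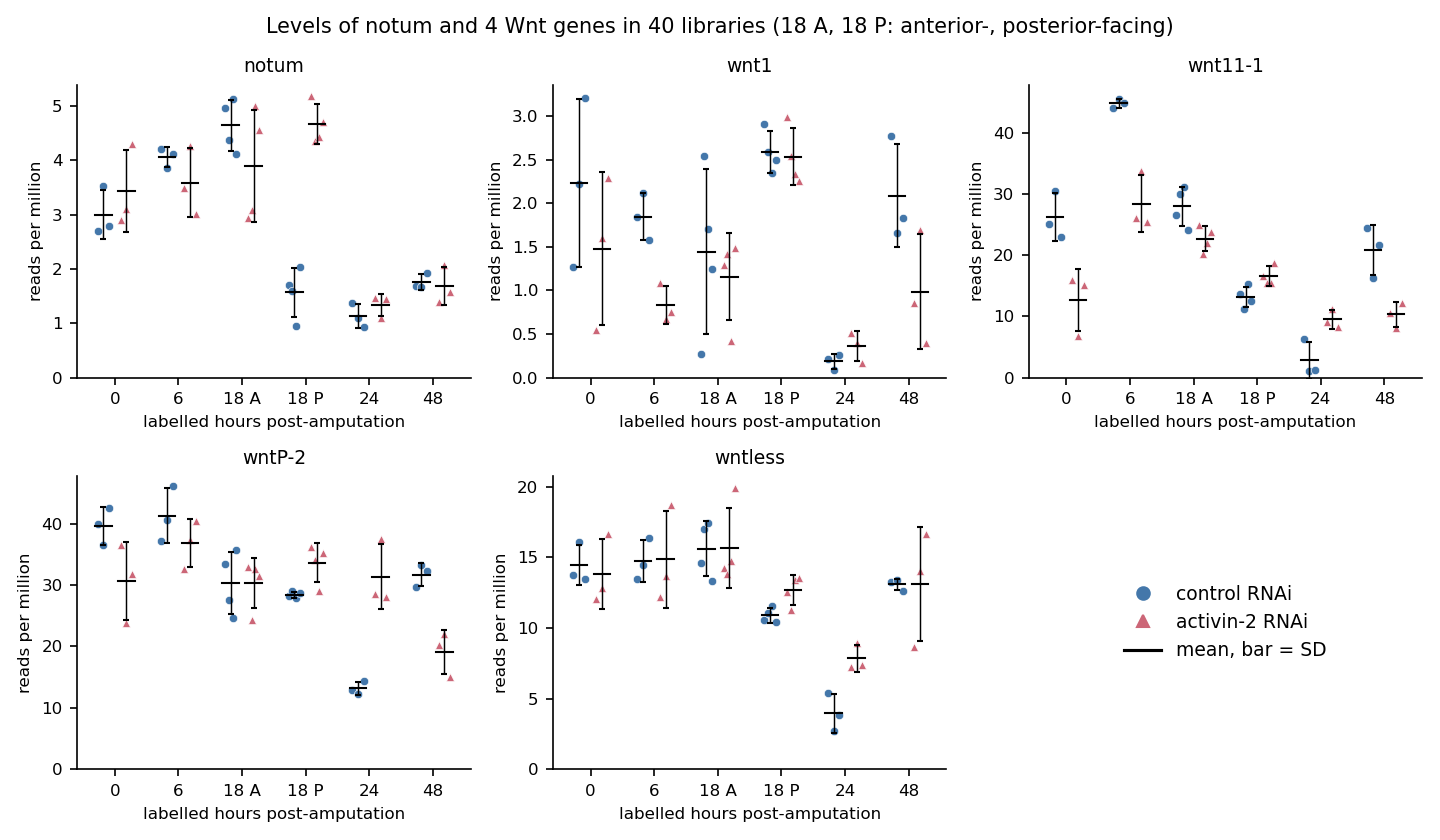
RPM of each gene (vertical axes) in every library, by label in hours post-amputation, with control RNAi as circles and *activin-2* RNAi as triangles (horizontal line, group mean; bar, SD). All 5 genes have their lowest mean in control RNAi labelled 24 hpa, and *notum* at 18 hpa posterior-facing wounds spans 0.957 to 2.04 RPM among circles and 4.35 to 5.18 RPM among triangles.

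At 18 hpa in control RNAi, *notum*, *wnt11-1* and *wntless* were lower at posterior- than at anterior-facing wounds, whereas *wnt1* had the higher mean at posterior-facing wounds and *wntP-2* differed little. The inhibitor *notum* was 4.96, 4.38, 5.12 and 4.12 RPM at anterior-facing and 1.70, 1.59, 0.957 and 2.04 RPM at posterior-facing wounds. The ligand *wnt11-1* was 26.6, 30.1, 31.2 and 24.2 RPM at anterior-facing and 13.7, 11.3, 15.2 and 12.6 RPM at posterior-facing wounds. For neither gene did the orientations overlap, and all 4 anterior-facing libraries were the higher ones. The wound faces of a fragment also lie at different positions along the body axis, and anterior-facing wounds were sampled at 18 hpa only. Orientation and axial position therefore cannot be told apart, here and in the later comparisons of orientation.

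The secretion factor *wntless* was 14.6, 17.0, 17.5 and 13.4 RPM at anterior-facing and 10.6, 11.1, 11.6 and 10.4 RPM at posterior-facing wounds, again without overlap. In edgeR's quasi-likelihood test (Benjamini-Hochberg adjustment over all contigs tested, called at an adjusted p under 0.05), the change from anterior- to posterior-facing was -1.53 on the log2 scale for *notum* (SE 0.22, adjusted p = 3.18e-04), -1.03 for *wnt11-1* (SE 0.11, adjusted p = 2.71e-05) and -0.46 for *wntless* (SE 0.12, adjusted p = 0.0159). Of the 16195 contigs tested, 15.4% were called in this comparison and 21.1% had groups that did not overlap, against 3 of 5 genes here by either measure. The call for *wntless* was lost without control RNAi anterior-facing replicate 3 (adjusted p = 0.0580) or posterior-facing replicate 1 (adjusted p = 0.0521).

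The wound-induced ligand *wnt1* was 0.276, 2.55, 1.71 and 1.25 RPM at anterior-facing and 2.91, 2.59, 2.35 and 2.49 RPM at posterior-facing wounds of control RNAi. The anterior-facing libraries spread from 2 to 25 reads, and replicate 2 overlapped the posterior-facing range. The difference of 0.81 (SE 0.36, 95% interval 0.11 to 1.51) did not pass the test (adjusted p = 0.149), and without anterior-facing replicate 2 it was 1.23 (adjusted p = 0.0384). *wntP-2*, a ligand of a broad posterior domain, had means of 30.3 ± 5.1 RPM (SD, n = 4) facing anterior and 28.4 ± 0.49 RPM (SD, n = 4) facing posterior, and the interval of its difference ran from -0.22 to 0.17 on the log2 scale.

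In the libraries labelled *activin-2* RNAi, *wnt1* was called higher and *wnt11-1* lower at posterior-facing wounds. *wnt1* was 1.30, 1.42, 0.417 and 1.49 RPM at anterior-facing and 2.99, 2.55, 2.34 and 2.25 RPM at posterior-facing wounds, a difference of 1.08 (SE 0.28, adjusted p = 0.0134). *wnt11-1* was 25.0, 20.2, 21.9 and 23.8 RPM at anterior-facing and 16.7, 15.4, 15.5 and 18.8 RPM at posterior-facing wounds, a difference of -0.44 (SE 0.09, adjusted p = 0.00386). The groups overlapped for neither gene, and in 1 fit of all 12 groups *wnt11-1* missed the threshold (adjusted p = 0.190).

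*notum* in the same libraries was 2.95, 3.08, 5.00 and 4.56 RPM at anterior-facing and 5.18, 4.35, 4.43 and 4.71 RPM at posterior-facing wounds, and its difference of 0.28 did not pass the test (adjusted p = 0.321). *wntless* was 14.3, 13.9, 14.7 and 19.9 RPM against 12.6, 11.3, 13.4 and 13.5 RPM, which did not overlap but missed the threshold (-0.30, adjusted p = 0.104). *wntP-2* changed by 0.16 (95% interval -0.01 to 0.34). The calls were 2 of 5 genes and the groups without overlap 3 of 5, in a comparison in which 18.4% of the 16360 contigs tested were called and 23.0% did not overlap. All 4 pharynx marker contigs were also called higher at posterior-facing wounds here, where they summed to 54.2 to 177 RPM against 3.89 to 14.2 RPM at anterior-facing wounds. Their part in the orientation differences of this arm and in the interaction was not tested.

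The difference between the arms in the effect of orientation was tested as an interaction. It was called for *notum* (1.82, SE 0.29, adjusted p = 0.00782), 1 of 5 genes where 0.0941% of 17011 contigs were called. For *wnt11-1* it was 0.60 (95% interval 0.32 to 0.89), which missed the threshold after adjustment (adjusted p = 0.274). The intervals were -0.67 to 1.25 for *wnt1*, -0.08 to 0.48 for *wntP-2* and -0.16 to 0.51 for *wntless* (adjusted p = 0.9997 for each).

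**Figure D2:**
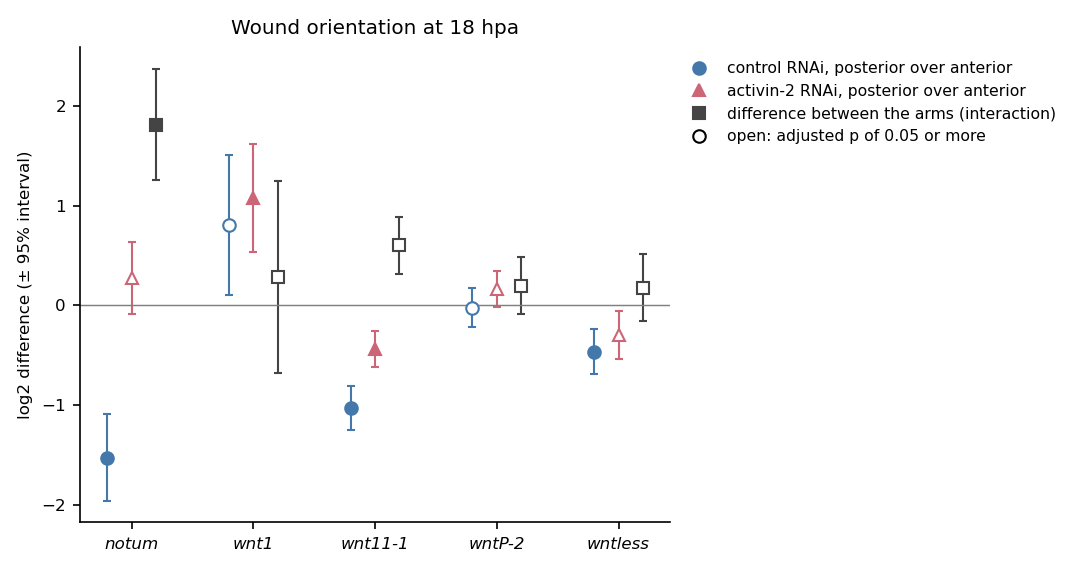
Log2 difference of posterior- over anterior-facing wounds at 18 hpa in control RNAi (circles) and *activin-2* RNAi (triangles), and the difference between the arms (squares), with 95% intervals and open symbols where the adjusted p was 0.05 or more. For *notum* the circle lies at -1.53 and the triangle at 0.28, whereas for *wnt1* they lie at 0.81 and 1.08.

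Ratios of reads within a library do not depend on library size, and transcript length cancels when a ratio is compared between groups. The log2 ratio of *notum* to *wnt1* reads, with 0.5 added to each count, was 3.87, 0.77, 1.56 and 1.67 at anterior-facing and -0.76, -0.68, -1.26 and -0.28 at posterior-facing wounds of control RNAi. In the posterior-facing libraries labelled *activin-2* RNAi it was 0.78, 0.76, 0.91 and 1.05. At these wounds *notum* reads outnumbered *wnt1* reads in every *activin-2* RNAi library and in no control RNAi library. As reads are not divided by transcript length, this does not compare the numbers of transcripts of the genes.

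The ratio of *notum* to each of the 4 other genes was higher in the libraries labelled *activin-2* RNAi than in control RNAi at posterior-facing wounds, without overlap of libraries. The mean difference was 1.62 on the log2 scale over *wnt1*, 1.25 over *wnt11-1*, 1.35 over *wntP-2* and 1.37 over *wntless* (two-sided exact permutation test, p = 0.0286 each, the smallest p that 4 libraries against 4 allow). At anterior-facing wounds the same differences were -0.17, 0.01, -0.29 and -0.28, and the libraries overlapped. Since *notum* is the numerator of all 4 ratios, they are not independent of each other.

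Between orientations, the 4 ratios did not move alike. In control RNAi the posterior minus anterior difference was -2.71 over *wnt1*, -1.5 over *wntP-2* and -1.07 over *wntless* (exact permutation p = 0.0286 each), and -0.49 over *wnt11-1*, where the libraries overlapped (exact permutation p = 0.0857). In *activin-2* RNAi the ratio over *wnt1* was lower at posterior-facing wounds (-0.93, exact permutation p = 0.0286), whereas the ratio over *wnt11-1* was higher there (0.74, exact permutation p = 0.0286). Of the 16 ratio tests, 9 reached the smallest p, which is 0.0508 after adjustment over the 16, so that 0 were called. Without control RNAi posterior-facing replicate 4, whose *notum* level was the highest of its group, 10 were called (adjusted p = 0.0457).

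**Figure D3:**
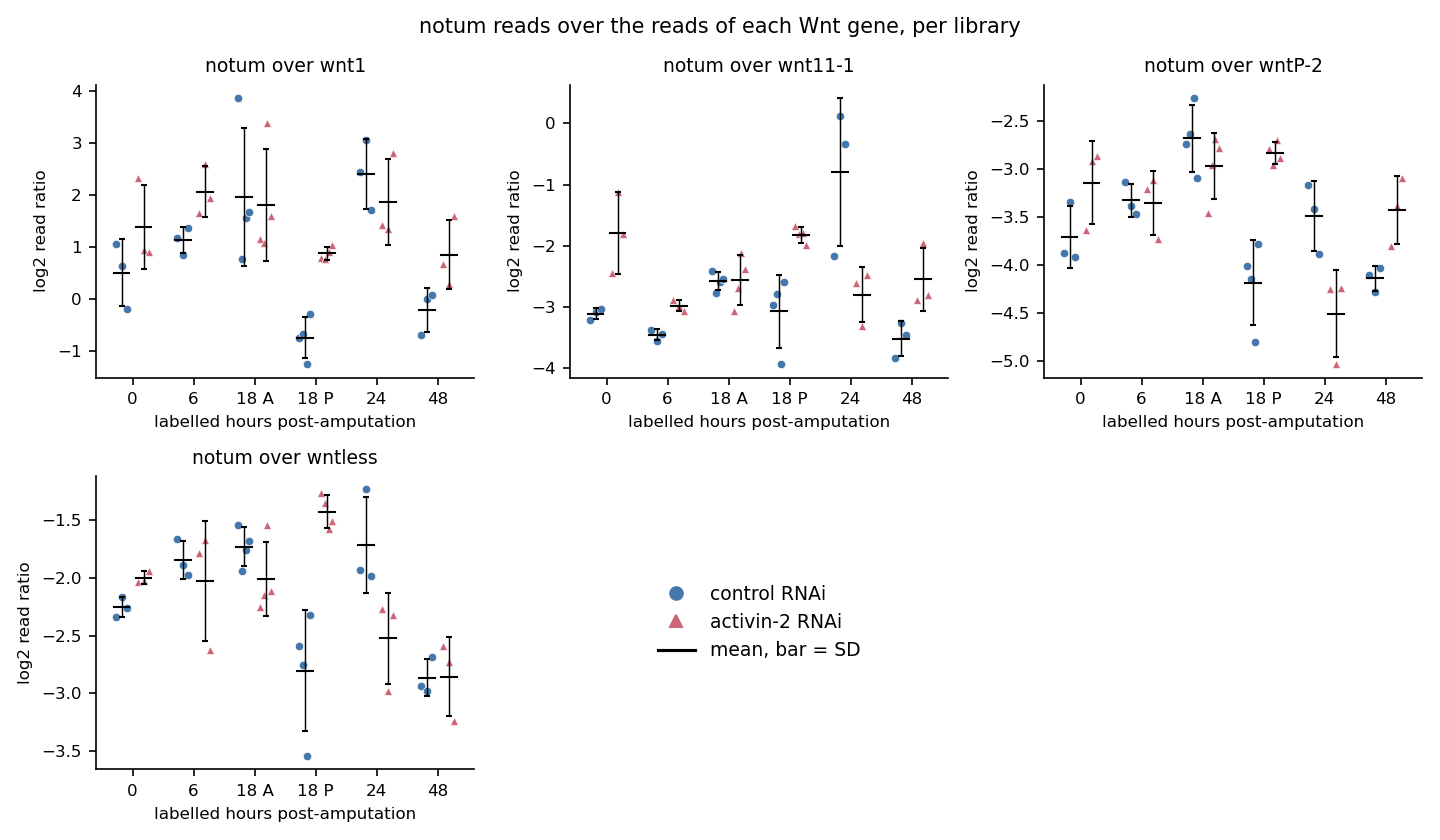
Log2 ratio of *notum* reads to the reads of each of the 4 other genes (vertical axes) in every library, by label in hours post-amputation, with control RNAi as circles and *activin-2* RNAi as triangles (horizontal line, group mean; bar, SD). At 18 hpa posterior-facing wounds the *activin-2* RNAi libraries lie above the control RNAi libraries in all 4 panels, with mean differences of 1.25 to 1.62.

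The ratio of reads of the ligands *wnt11-1* and *wntP-2* also differed between labels. Its group mean in control RNAi was -0.60 at labelled 0 hpa, 0.13 at labelled 6 hpa, -0.11 at anterior-facing and -1.11 at posterior-facing wounds at 18 hpa, -2.70 at labelled 24 hpa and -0.62 at labelled 48 hpa. In *activin-2* RNAi the corresponding means were -1.35, -0.38, -0.41, -1.02, -1.71 and -0.88. In both arms the mean ratio was highest at labelled 6 hpa and lowest at labelled 24 hpa, where the control RNAi libraries ran from -3.56 to -1.01. The libraries labelled 6 hpa overlapped those of anterior-facing wounds at 18 hpa in both arms, with -0.67 to -0.14 against -0.57 to -0.27 in *activin-2* RNAi. In that arm the libraries labelled 24 hpa (-1.76 to -1.64) also overlapped those labelled 0 hpa (-1.81 to -1.06).

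Between the RNAi arms, each gene had its own pattern over the labels. The comparisons at the 6 labels use separate libraries, while the comparisons within 18 hpa share libraries with those of orientation. At posterior-facing wounds at 18 hpa, *notum* rose in the libraries labelled *activin-2* RNAi, in which *activin-2* itself was 70.1, 16.6, 6.02 and 3.63 RPM, by 1.54 on the log2 scale (SE 0.21, adjusted p = 1.63e-04, edgeR's quasi-likelihood test), and 8.93% of the 16346 contigs tested were called there. Without any 1 library it was 1.33 to 1.68 and called (adjusted p of 1.99e-04 to 8.74e-04). *wnt11-1* (0.27, 95% interval 0.07 to 0.47, adjusted p = 0.115) and *wntP-2* (0.18, 0.04 to 0.33, adjusted p = 0.136) also had *activin-2* RNAi libraries that were all above those of control RNAi, without passing the test. Groups without overlap were 3 of 5 genes here against 15.8% of all contigs. For *wntP-2*, leaving out *activin-2* RNAi replicate 3 gave 0.25 (adjusted p = 0.0320).

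*wnt1* at the same wounds was 2.59 ± 0.24 RPM (SD, n = 4) in control RNAi and 2.53 ± 0.33 RPM (SD, n = 4) in *activin-2* RNAi. The interval of its difference ran from -0.45 to 0.28 on the log2 scale, and for *wntless* from -0.02 to 0.35. The other contig with the annotation of *wntless* (dd_9546) was called higher in this comparison, as given below. Pharynx marker contigs, 4 in all, summed to 0.696 to 1.82 RPM in control RNAi and 54.2 to 177 RPM in *activin-2* RNAi at these wounds. Muscle-annotated contigs, 1083 in all and 1 of them at 0 reads throughout, summed to 64850 to 69288 RPM and 65579 to 68564 RPM. The part of the pharynx markers in these differences was not tested, and in bulk samples fewer cells of a type cannot be told apart from less RNA per cell. At anterior-facing wounds 0 of 5 genes passed the test by edgeR and 0 by DESeq2, 1 of them at an unadjusted p under 0.05 in edgeR (*wnt11-1*, -0.33, adjusted p = 0.119), where 2.60% of contigs were called and 9.23% did not overlap.

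**Figure D4:**
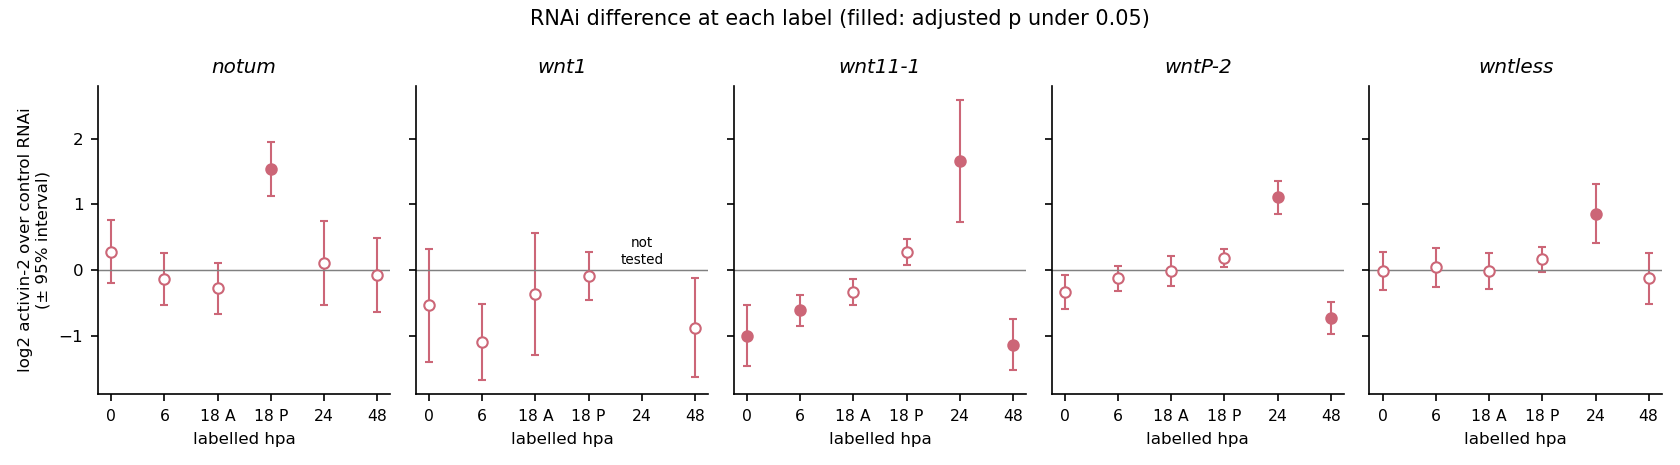
Log2 difference of *activin-2* RNAi over control RNAi at each label for the 5 genes, with 95% intervals and filled symbols where the adjusted p was under 0.05. *notum* is called only at 18 hpa posterior-facing wounds, while *wnt11-1* is called lower at labelled 0, 6 and 48 hpa and higher at labelled 24 hpa.

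The posterior ligand *wnt11-1* was lower in *activin-2* RNAi at labelled 0, 6 and 48 hpa and higher at labelled 24 hpa. At labelled 0 hpa it was 25.1, 30.6 and 23.0 RPM in control RNAi and 15.9, 6.79 and 15.2 RPM in *activin-2* RNAi (-0.997, SE 0.24, adjusted p = 0.0325). At labelled 6 hpa it was 44.0, 45.6 and 44.9 RPM against 26.1, 33.9 and 25.5 RPM (-0.61, SE 0.12, adjusted p = 0.0417). At labelled 48 hpa it was 24.5, 16.4 and 21.6 RPM against 10.6, 8.17 and 12.3 RPM (-1.13, SE 0.20, adjusted p = 0.0140). In all 3 comparisons every *activin-2* RNAi library lay below every control RNAi library.

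These calls depended on single libraries. At labelled 0 hpa the call was lost without control RNAi replicate 1 (adjusted p = 0.0707) or 2 (adjusted p = 0.0904), and at labelled 6 hpa without any of the control RNAi libraries or *activin-2* RNAi replicate 1 (adjusted p = 0.0979 to 0.154). At labelled 48 hpa it was lost without control RNAi replicate 1 (adjusted p = 0.0581) or 3 (adjusted p = 0.0698). DESeq2 did not call *wnt11-1* at labelled 0 hpa (adjusted p = 0.144), nor did the fit of all 12 groups at labelled 6 hpa (adjusted p = 0.129). The log2 difference without 1 library was -1.21 to -0.70 at labelled 0 hpa, -0.77 to -0.51 at labelled 6 hpa and -1.27 to -0.91 at labelled 48 hpa. Contigs called were 4.22%, 2.00% and 2.33% of those tested at the 3 labels, against 1, 1 and 2 of 5 genes, and groups did not overlap for 23.3%, 23.9% and 24.1% of contigs against 2 of 5 genes at each label.

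The other gene called at labelled 48 hpa was *wntP-2*, with 29.6, 33.2 and 32.2 RPM in control RNAi and 20.2, 22.05 and 15.1 RPM in *activin-2* RNAi (-0.73, SE 0.12, adjusted p = 0.0115). The groups did not overlap, and the call was lost without control RNAi replicate 2 (adjusted p = 0.0759) or 3 (adjusted p = 0.0663). At labelled 0 hpa *wntP-2* was 39.9, 36.5 and 42.6 RPM against 36.5, 23.8 and 31.7 RPM, where the highest *activin-2* RNAi library was just below the lowest control RNAi library (-0.33, adjusted p = 0.203). *wnt1* at labelled 6 hpa was 1.84, 2.12 and 1.58 RPM against 1.09, 0.674 and 0.752 RPM, which did not overlap and missed the threshold (-1.09, SE 0.29, adjusted p = 0.0966). *notum* and *wntless* overlapped between the arms at labelled 0, 6 and 48 hpa. Pharynx markers summed to 0.448 to 41.9 RPM in control RNAi and 6.70 to 21.2 RPM in *activin-2* RNAi at labelled 0 hpa, to 0.605 to 1.23 RPM and 3.30 to 28.7 RPM at labelled 6 hpa, and to 0.647 to 1.54 RPM and 3.86 to 122 RPM at labelled 48 hpa, and their part was not tested.

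At labelled 24 hpa *wnt11-1*, *wntP-2* and *wntless* were higher in *activin-2* RNAi. *wnt11-1* was 6.36, 1.01 and 1.18 RPM in control RNAi and 9.09, 11.3 and 8.26 RPM in *activin-2* RNAi (1.66, SE 0.47, adjusted p = 0.0392). *wntP-2* was 12.8, 12.2 and 14.4 RPM against 28.5, 37.5 and 28.1 RPM (1.11, SE 0.13, adjusted p = 1.60e-04). *wntless* was 5.41, 2.66 and 3.81 RPM against 7.21, 8.97 and 7.41 RPM (0.86, SE 0.23, adjusted p = 0.0295). The groups did not overlap for any of the 3, and these were 3 of the 4 genes tested, where 12.5% of contigs were called and 40.6% did not overlap.

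Control RNAi replicate 1 stood apart at this label, with 60 *wnt11-1* reads against 11 and 14 in the other two libraries. Without it the difference of *wnt11-1* was 2.96, and without any other library of the comparison the call was lost (1.24 to 1.75, adjusted p = 0.0538 to 0.149), as it was by DESeq2 (adjusted p = 0.254). For *wntless* the call was lost without control RNAi replicate 2 or *activin-2* RNAi replicate 2 or 3 (adjusted p = 0.0704 to 0.132) and stood at the threshold without control RNAi replicate 3 (adjusted p = 0.05), while *wntP-2* was called without any 1 library. *wnt1*, with 2, 1 and 3 reads per library in control RNAi and 0.170 to 0.515 RPM in *activin-2* RNAi, was too low to be tested. *notum* was 1.38, 1.102 and 0.931 RPM against 1.46, 1.096 and 1.45 RPM, which overlapped. Pharynx markers summed to 11.1 to 75.5 RPM and 18.0 to 158 RPM in the arms, and their part was not tested.

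Whether the RNAi effect at 18 hpa posterior-facing wounds differed from the mean of the effects at labelled 0, 6, 24 and 48 hpa was tested in 1 fit. It differed for *notum* (1.48, SE 0.23, adjusted p = 0.00324), 1 of 5 genes where 0.221% of 18102 contigs were called. For *wnt11-1* the value was 0.54 (adjusted p = 0.610) and for *wntP-2* 0.20 (adjusted p = 0.668). When the libraries labelled 24 hpa were left out, an alternative chosen after seeing the data, it was 1.51 for *notum* (adjusted p = 0.0111), 1.19 for *wnt11-1* (adjusted p = 0.0313) and 0.57 for *wntP-2* (adjusted p = 0.0385). The share of all contigs called in that second fit is not given here, and the 0.221% belongs to the first fit only.

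Over the labelled times in control RNAi, *wnt11-1* rose from labelled 0 to 6 hpa by 0.78 (SE 0.11, adjusted p = 0.0109), the only 1 of 5 genes called where 0.821% of contigs were called and 18.9% did not overlap. The call was lost without control RNAi labelled 0 hpa replicate 1 (adjusted p = 0.0783) and in the fit of all 12 groups (adjusted p = 0.0641). Of the 6 wound gene contigs tested in this comparison, 0 were called higher and 2 lower at labelled 6 hpa. The step is therefore given by label only. From labelled 6 hpa to posterior-facing wounds at 18 hpa, *wnt11-1* fell by 1.73 (SE 0.09, adjusted p = 1.83e-07), *notum* by 1.36 (SE 0.23, adjusted p = 7.52e-04), *wntP-2* by 0.51 (SE 0.08, adjusted p = 5.01e-04) and *wntless* by 0.40 (SE 0.11, adjusted p = 0.0109). *wnt1* was 1.84, 2.12 and 1.58 RPM at labelled 6 hpa and above that in all 4 libraries at 18 hpa (0.50, adjusted p = 0.0775). Of all contigs, 37.9% were called and 43.1% did not overlap in this comparison, against 4 and 5 of 5 genes. In this and the other steps to or from 18 hpa, labelled time and set of libraries cannot be told apart.

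From 18 to labelled 24 hpa in control RNAi, the 4 Wnt genes fell and from labelled 24 to 48 hpa they rose again. The first change was -3.53 for *wnt1* (SE 0.38, adjusted p = 1.24e-05), -2.11 for *wnt11-1* (SE 0.41, adjusted p = 0.00121), -1.30 for *wntless* (SE 0.19, adjusted p = 1.64e-04) and -0.93 for *wntP-2* (SE 0.08, adjusted p = 3.45e-06). The second was 3.39 (SE 0.46, adjusted p = 4.55e-04), 2.91 (SE 0.41, adjusted p = 6.70e-04), 1.70 (SE 0.20, adjusted p = 1.47e-04) and 1.23 (SE 0.09, adjusted p = 6.65e-06) in the same order. *notum* was called in neither (adjusted p = 0.509 and 0.189). For *wnt11-1*, leaving out 1 library gave -3.41 to -1.69 for the first change and 2.49 to 4.21 for the second, and without control RNAi labelled 24 hpa replicate 1 they were -3.41 and 4.21.

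These 4 calls of 5 genes stood against 49.4% of contigs called from 18 to labelled 24 hpa and 14.0% from labelled 24 to 48 hpa, and groups did not overlap for 54.6% and 34.1% of contigs, against 4 and 5 of 5 genes. Both comparisons share the libraries labelled 24 hpa, so that the fall and the rise are not independent. The 4 pharynx markers were all called higher in the first comparison and lower in the second, with sums of 0.696 to 1.82 RPM at 18 hpa, 11.1 to 75.5 RPM at labelled 24 hpa and 0.647 to 1.54 RPM at labelled 48 hpa. Of the muscle-annotated contigs, 368 were called higher and 112 lower of 815 tested in the first comparison, and 68 higher and 82 lower of 804 in the second. The part of either list was not tested. Between labelled 0 and 48 hpa 0 of 5 genes were called by edgeR, of which 2 (*notum* and *wntP-2*) had an unadjusted p under 0.05, where 11.0% of contigs were called. DESeq2 also called 0, and 3 of 5 genes (*notum*, *wntP-2* and *wntless*) did not overlap, against 34.7% of contigs.

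In *activin-2* RNAi, from labelled 6 hpa to posterior-facing wounds at 18 hpa, *wnt1* rose by 1.52 (SE 0.26, adjusted p = 6.98e-04) and *wnt11-1* fell by 0.83 (SE 0.12, adjusted p = 2.95e-04), where 45.8% of contigs were called and 47.9% did not overlap, against 2 and 3 of 5 genes. The 4 pharynx markers were also all called higher, and their part was not tested. *notum* was 3.49, 4.27 and 3.01 RPM at labelled 6 hpa and its difference was 0.32 (adjusted p = 0.171). From 18 to labelled 24 hpa, *wnt1* fell by 2.68 (SE 0.34), *notum* by 1.69 (SE 0.20), *wnt11-1* by 0.71 (SE 0.12) and *wntless* by 0.61 (SE 0.12), with adjusted p of 1.60e-05 to 0.00108 while 4 of 5 genes were called and did not overlap, against 41.0% and 44.8% of contigs. *wntP-2* was 33.6 ± 3.2 RPM (SD, n = 4) and 31.3 ± 5.3 RPM (SD, n = 3) at these labels (-0.01, 95% interval -0.21 to 0.19). The difference between the arms in these steps was not tested.

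From labelled 0 to 6 hpa in *activin-2* RNAi, edgeR called 0 of 5 genes where 1.13% of contigs were called, 1 gene had an unadjusted p under 0.05 and DESeq2 called 1. *wnt11-1* had the clearest difference (1.18, adjusted p = 0.0663) and was the 1 gene without overlap, against 20.0% of contigs. From labelled 24 to 48 hpa edgeR called 0 of the 4 genes tested where 0.909% of contigs were called, with 2 genes at an unadjusted p under 0.05, and *wntP-2* (-0.62, adjusted p = 0.0976) was the 1 gene without overlap, against 20.2% of contigs. Between labelled 0 and 48 hpa edgeR called 0 of 5 genes where 1.07% of contigs were called, 2 genes (*notum* at -0.95 and *wntP-2* at -0.60) had an unadjusted p under 0.05, and the same 2 did not overlap, against 17.4% of contigs. With the replicate number as a block in this last comparison, *wntP-2* was called (-0.58, adjusted p = 0.0210). DESeq2 left some of the genes without an adjusted p here, and it called *wntP-2* from labelled 24 to 48 hpa (adjusted p = 0.0402) but not from labelled 0 to 48 hpa (adjusted p = 0.0883).

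Other Wnt pathway genes were read from a list of 53 contigs drawn from the annotation, without the genes above, that holds ligands, Frizzled and LRP receptors, secreted inhibitors, cytoplasmic components and nuclear factors. From anterior- to posterior-facing wounds in control RNAi, 2 of the 43 contigs tested rose and 9 fell (list median -0.103, all contigs -0.00661), where 8.19% of all contigs were called higher and 7.24% lower. The largest change among the 10 contigs with the smallest adjusted p was that of FZD8-like (dd_17168), annotated as a Frizzled receptor of Wnts, which was 5.79, 7.85, 7.83 and 6.49 RPM at anterior-facing and 1.82, 1.99, 1.65 and 1.25 RPM at posterior-facing wounds (-1.999, adjusted p = 9.49e-06). Protein Wnt (dd_16209), a ligand, changed by -1.11 (adjusted p = 3.00e-04).

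Also among these 10, Evi/Wls (dd_9546), the other contig with the annotation of *wntless*, changed by -0.56 (adjusted p = 1.92e-04), and the contigs annotated as Frizzled moved in both directions, with Frz-d (dd_16571) at 0.86 and Frz-d (dd_7210) at 0.55 against Frz-d (dd_11650) at -0.64 and Frz-d (dd_6353) at -0.24. The remaining 3 were wntP-3 (dd_14865), a ligand, at -0.58, LEF1-like (dd_13056), a nuclear partner of beta-catenin, at -0.45, and axinB (dd_5818), a scaffold of the complex that degrades beta-catenin, at -0.42. The annotation Evi/Wls is shared by 2 contigs, Frz-d by 9 and Protein Wnt by 7, and the counts may divide reads of like sequences among them.

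In *activin-2* RNAi, 2 of 44 list contigs rose and 6 fell from anterior- to posterior-facing wounds, where 9.51% of all contigs were called higher and 8.88% lower. The count of the list, 8 of 44, was near the 18.4% called among all contigs. Among them, Protein Wnt (dd_16209) changed by -0.94, FZD8-like (dd_17168) by -1.02 and Frz-d (dd_11650) by -0.37, and sfrp1 (dd_31236), which has the Frizzled receptor *FZD5* as human best hit, by -1.36. LEF1-like (dd_13056) changed by -0.57, Dvl-1 (dd_4639), which relays the signal from Frizzled, by -0.21, Frz-d (dd_16571) by 0.64 and Frz-d (dd_13186) by 0.44. 

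Between the arms at posterior-facing wounds at 18 hpa, 5 of 43 contigs of the list rose in *activin-2* RNAi and 1 fell (list median 0.0677, all contigs 0.0101), where 3.15% of all contigs were called higher and 5.78% lower. Evi/Wls (dd_9546) was 35.9, 35.0, 37.2 and 37.5 RPM in control RNAi and 53.3, 45.9, 45.6 and 49.0 RPM in *activin-2* RNAi (0.36, adjusted p = 9.12e-04), and FZD8-like (dd_17168) was 4.38, 2.97, 3.59 and 3.14 RPM in *activin-2* RNAi (1.00, adjusted p = 0.00660). Neither overlapped with control RNAi. Vang-2 (dd_15787), of the planar cell polarity branch, rose by 0.40, Frz-d (dd_13356) by 0.38 and axinB (dd_5818) by 0.27, and Frz-d (dd_7210) fell by 0.32. Of a list of 19 position control contigs, 16 of which are also in the Wnt list, 2 of 18 rose and 2 fell in the same comparison. The latter included Follistatin (dd_9584), an inhibitor of Activin ligands, which changed by -0.63 (adjusted p = 8.82e-04) at posterior-facing and by -0.61 (adjusted p = 0.00589) at anterior-facing wounds. At anterior-facing wounds 2 of 44 Wnt list contigs fell, Frz-d (dd_11650) by 0.51 and LGR6-like (dd_6835) by 0.42, where 1.84% of all contigs were called lower.

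At labelled 24 hpa, 8 of 44 contigs of the Wnt list rose and 6 fell in *activin-2* RNAi, where 4.51% of all contigs were called higher and 7.96% lower. Contigs named from this comparison were chosen after their values were seen. The secreted inhibitor sFRP2 (dd_8832) was 36.6, 39.0 and 36.2 RPM in control RNAi and 12.01, 13.9 and 12.3 RPM in *activin-2* RNAi (-1.69, adjusted p = 6.84e-07), and it was 6.34 to 14.7 RPM in all libraries with other labels. Protein Wnt (dd_13487), with human *WNT2B* as best hit, was 12.3, 13.1 and 15.5 RPM against 3.17, 2.29 and 2.04 RPM (-2.58, adjusted p = 3.21e-06). Protein Wnt (dd_16209) was 3.60, 0.367 and 0.0846 RPM against 5.06, 7.37 and 6.73 RPM (2.20, adjusted p = 0.0380). In control RNAi labelled 24 hpa, sFRP2 was thus at its highest while *wnt11-1*, *wntP-2* and *wntless* were at their lowest.

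**Figure D5:**
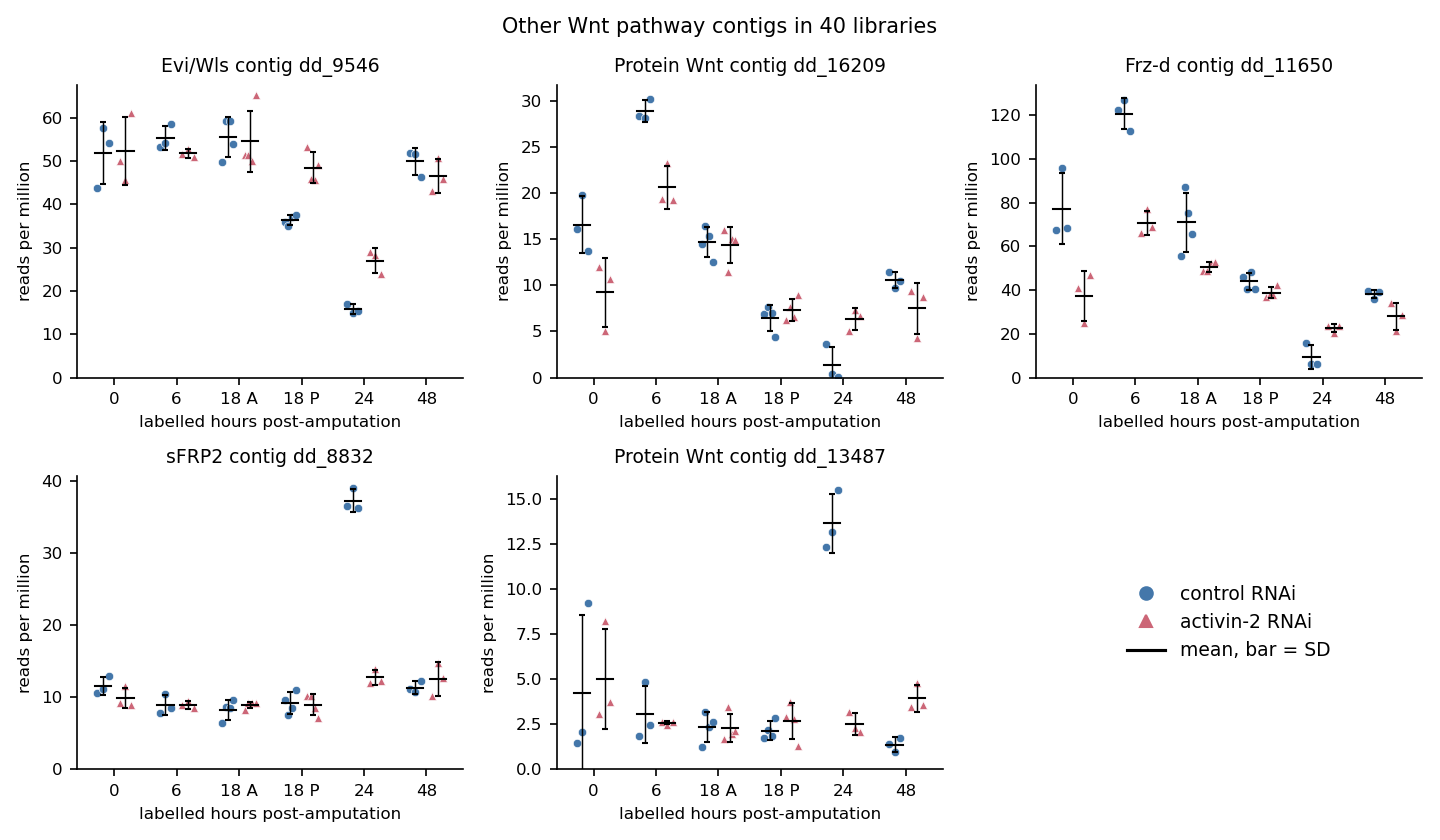
RPM of 5 other Wnt pathway contigs (vertical axes) in every library, by label in hours post-amputation, with control RNAi as circles and *activin-2* RNAi as triangles (horizontal line, group mean; bar, SD). Evi/Wls dd_9546, Protein Wnt dd_16209 and Frz-d dd_11650 are lowest in control RNAi labelled 24 hpa, where sFRP2 dd_8832 (36.2 to 39.0 RPM) and Protein Wnt dd_13487 (12.3 to 15.5 RPM) are highest.

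The contigs whose 12 group means followed each gene most closely were described by Pearson's r on the log2 scale among 16010 contigs, over groups that share depth, tissue and, for the arms, treatment. *wntless* was followed by Evi/Wls (dd_9546) at r = 0.989, by a contig annotated as *SLC7A11*, an amino acid transporter, at r = 0.955 and by *PCIF1* at r = 0.946. *wnt11-1* was followed by Protein Wnt (dd_16209) at r = 0.977, Frz-d (dd_11650) at r = 0.968 and the homeobox gene *hoxD* (dd_2442) at r = 0.954. Frz-d (dd_11650) was 122, 127 and 113 RPM in control RNAi labelled 6 hpa and 66.1, 77.0 and 68.9 RPM in *activin-2* RNAi, and 15.9, 6.43 and 6.34 RPM against 23.4, 20.4 and 23.7 RPM at labelled 24 hpa, an order of the arms like that of *wnt11-1*. This contig was chosen for its likeness to *wnt11-1* over these same groups, so the like order is no separate result.

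For the other genes no list member was among the closest contigs. These were *SUV39H1*, a histone methyltransferase (r = 0.897), *SLC7A6*, an amino acid transporter (r = 0.894), and *SOLH* (r = 0.886) for *notum*, and *NCKIPSD* (r = 0.932), *GRHPR* (r = 0.930) and *ERLEC1* (r = 0.920) for *wnt1*. For *wntP-2* they were *HELZ2* (r = 0.916), an unannotated contig (r = 0.910) and *UBB*, which encodes ubiquitin (r = 0.906). Among the 5 genes themselves r was highest between *wnt11-1* and *wntless* (0.894) and between *wnt11-1* and *wntP-2* (0.863), and lowest between *notum* and *wnt1* (0.448).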

How the data were processed

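The authors mapped stranded mRNA reads with Bowtie to the dd_Smed_v6 transcriptome and deposited raw counts per contig, summed over isotigs (Bowtie 1.2, cutadapt 1.8 and SAMtools 1.6 per the labels). The authors' deposited table of comparisons holds log2 fold changes and adjusted p-values from DESeq, which were not used, and annotation text, which was. Gene names came from it and from the paper. RPM is the count over the library's total of 2524235 to 13381025.

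Each pair of groups was fitted in edgeR 4.0.16 (R 4.3.3) by the quasi-likelihood test after TMM normalization and its expression filter, with 0.125 as prior count. The standard error is the size of the fitted difference over the square root of F. The interaction used the 4 groups at 18 hpa. Read ratios were tested by exact permutation. The fits were tested on simulated data. The alternatives were DESeq2 1.42.0, RLE or no normalization beyond library size, no filter, 1 fit of 12 groups, replicate block, and each library left out. Members and lists were chosen with earlier results of these data known. Named contigs were the 5 genes, *activin-2*, the 3 most alike contigs per gene, and up to 10 list contigs with the smallest adjusted p in the orientation, interaction and RNAi comparisons at 18 hpa. Same-numbered libraries deviated together at r over 0.1 in every pair only for *activin-2* RNAi labelled 48 against 0 hpa (r = 0.150 to 0.214). No label pairs the libraries, and whether these correlations mark a pairing was not tested.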

Additional observations from a re-analysis of the deposited data

Results flagged for a closer look

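*wntP-2* was 24.4 RPM in *activin-2* RNAi anterior-facing replicate 2 at 18 hpa, while the other 3 libraries of its group were between 31.5 and 32.9 RPM, a gap of 0.840 of the range. *wntless* was 19.9 RPM in replicate 4 of the same group, with the others between 13.9 and 14.7 RPM, a gap of 0.856 of the range. Of 36 groups of values looked at, chance alone would set apart about 1 in 20. The effect of orientation on *notum* differed between the RNAi arms by 1.82 on the log2 scale, and its RNAi effect at 18 hpa posterior-facing wounds differed by 1.48 from the mean of those at the other labelled times.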

How the results depend on the processing

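Of the 34 called differences of the 5 genes, RLE normalization, library size alone and no filter kept all 34 calls and directions, the fit of all 12 groups kept 31 calls, the replicate block 32, and DESeq2 31 of the 33 it gave an adjusted p. Leaving out 1 library at a time kept 244 of 266 calls, and the direction in 266 of 266. The number of the 5 genes called between the arms was 1 at labelled 0 hpa, with 0 by DESeq2 and 0 under the replicate block, and 1 at labelled 6 hpa, with 0 in the fit of all 12 groups and 0 under the block. By DESeq2 *wnt11-1* at labelled 24 hpa was 1.56 (adjusted p = 0.254). In the fit of all 12 groups the orientation call of *wnt11-1* in *activin-2* RNAi was lost (-0.44, adjusted p = 0.190), leaving 1 gene called in place of 2, as was the only call from labelled 0 to 6 hpa in control RNAi (0 genes). From labelled 0 to 6 hpa in *activin-2* RNAi, that fit, DESeq2 and no filter each called 1 gene where the test above called 0. From labelled 24 to 48 hpa and from 0 to 48 hpa in *activin-2* RNAi, where it also called 0, the fit of all 12 groups called 2 genes in each, and no filter and the replicate block 1 in each. With library size alone 1 gene was called from labelled 0 to 48 hpa in control RNAi in place of 0. The share of all contigs called under each alternative is not given here, so these counts cannot be set against it.

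Values near 0 changed sign for *wntless* at labelled 0 hpa without a filter (0.0061), and for *wntP-2* (0.0081) and *wntless* (0.010) at anterior-facing wounds with library size alone. Without the libraries labelled 24 hpa, *wntless* at 18 hpa posterior-facing wounds against the other times was 0.19 in place of -0.03, and 3 genes were called in place of 1. The share of all contigs called in that fit is not given. Library size alone moved the median of all contigs by 0.160 between the arms at labelled 24 hpa, by -0.199 from 18 to labelled 24 hpa in control RNAi and by -0.143 from labelled 0 to 48 hpa. Group means in other units moved by more than 1 SD in 8 of 120 cases. The causes were not tested. *wnt1* had 1 to 38 reads per library and did not pass the expression filter between the arms at labelled 24 hpa.

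Of 76 differences, the replicate block lost 2 calls, *wnt11-1* at labelled 0 hpa (adjusted p = 0.0691) and labelled 6 hpa (adjusted p = 0.0533), gained 2, *wntP-2* in *activin-2* RNAi from labelled 24 to 48 hpa (adjusted p = 0.0425) and from 0 to 48 hpa, and changed no other call.

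Without 1 library, the number of genes called between the arms ranged from 0 to 1 at labelled 0 and 6 hpa, from 1 to 2 at 18 hpa posterior-facing wounds, from 1 to 3 at labelled 24 hpa and from 0 to 2 at labelled 48 hpa. It ranged from 0 to 1 for labelled 0 to 6 hpa in both arms, from 2 to 4 for labelled 6 to 18 hpa and from 0 to 1 for labelled 24 to 48 hpa in *activin-2* RNAi, and for the ratio tests from 0 to 10. For the edgeR fits among these, the share of all contigs called is not given here, so the counts cannot be set against it. Between the arms, *wntless* ranged from -0.16 to 0.086 at labelled 0 hpa, from -0.12 to 0.15 at labelled 6 hpa, from -0.15 to 0.049 at anterior-facing wounds and from -0.27 to 0.089 at labelled 48 hpa, and *notum* from -0.29 to 0.0060, from -0.055 to 0.27 and from -0.29 to 0.068 at labelled 6, 24 and 48 hpa. At anterior-facing wounds *wnt1* ranged from -0.67 to 0.056 and *wntP-2* from -0.10 to 0.070, and at posterior-facing wounds *wntP-2* from 0.16 to 0.25.

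Between orientations in control RNAi, *wnt1* ranged from 0.51 to 1.23, *wntless* from -0.53 to -0.39 and *wntP-2* from -0.10 to 0.067. The interaction of *wnt1* ranged from -0.14 to 0.58, and *wntless* at 18 hpa posterior-facing wounds against the other times from -0.089 to 0.035. The ratio of *notum* to *wnt1* between the arms at anterior-facing wounds ranged from -0.69 to 0.47, that to *wnt11-1* from -0.13 to 0.18, and that to *wntP-2* between orientations in *activin-2* RNAi from -0.023 to 0.23.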
